A study of Mus musculus with 6 samples.

Results

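The messages of 10 genes were followed in cultured podocytes exposed to cyclic stretch. The genes were grouped under podocalyxin, ezrin linkers and the apical surface, a heading that does not place each of them there. They are podocalyxin (Podxl), the chloride intracellular channel genes Clic5 and Clic4, the linkers ezrin (Ezr), moesin (Msn) and radixin (Rdx), the scaffolds Slc9a3r1 and Slc9a3r2 (NHERF1 and NHERF2), podoplanin (Pdpn) and dystroglycan (Dag1). They were chosen by name, as every probe set of an Affymetrix mouse expression array whose only gene symbol in the platform annotation was in this list. The 10 genes were read by 30 probe sets, out of 18193 genes and 34945 probe sets with a single symbol, and the probe set with the highest mean over all 6 arrays stood for its gene. RNA came from 3 samples of stretched cells and 3 samples of unstretched cells, all of the conditionally immortalized mouse podocyte line SVI. All cells were differentiated for 1 to 2 weeks at 38 °C in medium with 10% fetal bovine serum. Stretched cells were put through biaxial stretch cycles of 0.5 Hz, reaching 5% linear strain, for 3 days, and unstretched cells were not. All 6 samples are of 1 cell line, and the series names 3 independent batches without saying which arrays belong to which. The spread behind each p-value is that of these 6 arrays, and how much of it lies between batches is not known.

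Podocalyxin is a sialomucin whose negatively charged sugars coat the free surface of podocyte foot processes and help to keep the slits between them open. Its short cytoplasmic tail is held by NHERF scaffolds, which bind ezrin, and ezrin and its relatives moesin and radixin in turn bind actin filaments. CLIC5 and CLIC4 associate with ezrin at apical membranes, podoplanin is a small mucin that binds the same linkers, and dystroglycan connects laminin and agrin outside the cell to dystrophin or utrophin inside it.

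The values are log2 expression values, in which a difference of 1 is a doubling of signal. The mean over probe sets was 5.70 on every array, and the SD over probe sets was 2.07 to 2.10 on stretched arrays and 2.03 to 2.05 on unstretched arrays. Pearson correlations across probe sets were 0.995 to 0.997 among stretched arrays and 0.993 to 0.994 among unstretched arrays, and 0.987 to 0.990 between the groups. The beta-actin control, whose 3' excess over the 5' end grows with RNA degradation, had an excess of 1.30 ± 0.05 log2 units in stretched and 1.57 ± 0.03 in unstretched cells (SD, n = 3 each). The same excess of the Gapdh control was 0.16 ± 0.10 in stretched and 0.25 ± 0.07 in unstretched cells, with overlapping groups. The part of these differences in the results was not tested. A mean log2 value of 5.74 was that of the median gene. Of 12 podocyte marker genes, 7 lay above it, among them Wt1, Synpo, Cd2ap and Podxl, while Nphs1 (nephrin), Ptpro, Lmx1b, Foxc2 and Tcf21 lay below it. Among these markers Synpo, which encodes an actin-binding protein of foot processes, fell (log2 change -0.45, limma adjusted p = 0.00412) and the filament gene Nes rose (0.57, adjusted p = 0.00182). All 9 endothelial markers and all 4 lymphatic endothelial markers lay below it too, which bears on Podxl and Pdpn, since those cells can express them: the mean level of the endothelial list was 4.17 to 4.31 on stretched and 4.19 to 4.36 on unstretched arrays. Leukocyte markers averaged 4.96 to 5.06 on stretched and 5.19 to 5.32 on unstretched arrays, with Csf1r and Cd68 lower in stretched cells. Only Csf1r (mean 8.63) of these markers lay above the median gene. Parietal epithelial markers averaged 4.91 to 5.09 on stretched and 4.77 to 4.88 on unstretched arrays, with Pax8 and Cldn1 higher in stretched cells. The other 4 of these 6 markers lay below the median gene and did not pass. Their log2 changes were 0.16 (Krt19), -0.13 (Krt8), -0.11 (Krt18) and -0.14 (Scin). Of 7 mesangial and fibroblast markers 3 lay above the median gene, Acta2 (mean 13.43), Pdgfrb (8.62) and Gata3 (6.16). The mean level of this list was 6.71 to 6.81 on stretched and 6.63 to 6.69 on unstretched arrays. Pdgfrb was higher in stretched cells (log2 change 0.41, limma adjusted p = 0.0101), and Acta2 did not pass (0.145, adjusted p = 0.260). Of 7 tubule markers 2 lay above the median gene, Cdh16 (mean 10.71) and Lrp2 (10.10). The mean level of the tubule list was 6.09 to 6.12 on stretched and 5.96 to 5.99 on unstretched arrays, with Cubn higher in stretched cells (log2 change 0.49, limma adjusted p = 0.0173). The part of these markers in the results below was not tested.

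The messages of Clic5 and Dag1 were lower in stretched cells, and the other 8 genes did not pass the test. In bulk RNA, fewer cells of a kind and less RNA per cell cannot be told apart. The test was limma's moderated test of stretched minus unstretched over all 18193 genes, at a Benjamini-Hochberg adjusted p under 0.05. It called 2 of the 10 genes, 0 higher and 2 lower, against 14.7% of all genes (7.98% higher and 6.76% lower). At an unadjusted p under 0.05, 1 gene was higher (Rdx) and 3 were lower (Clic5, Dag1 and Ezr). Of all 18193 genes, 2611 were higher and 2446 lower at that level. The median log2 change of the 10 genes was -0.03, beside -0.02 for all genes. All 3 stretched arrays lay on the same side of all 3 unstretched arrays for 5 of the 10 genes, a pattern shown by 32.6% of all genes. Over the 30 probe sets, fitted among all probe sets, 6 passed, against 13.1% of all probe sets, and 14 had groups that did not overlap, against 31.2% of all. Of those 6, 3 belonged to Clic5, 2 to Dag1 and 1 to Rdx. Probe sets of 1 gene read the same RNA samples and are not independent.

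**Figure D1:**
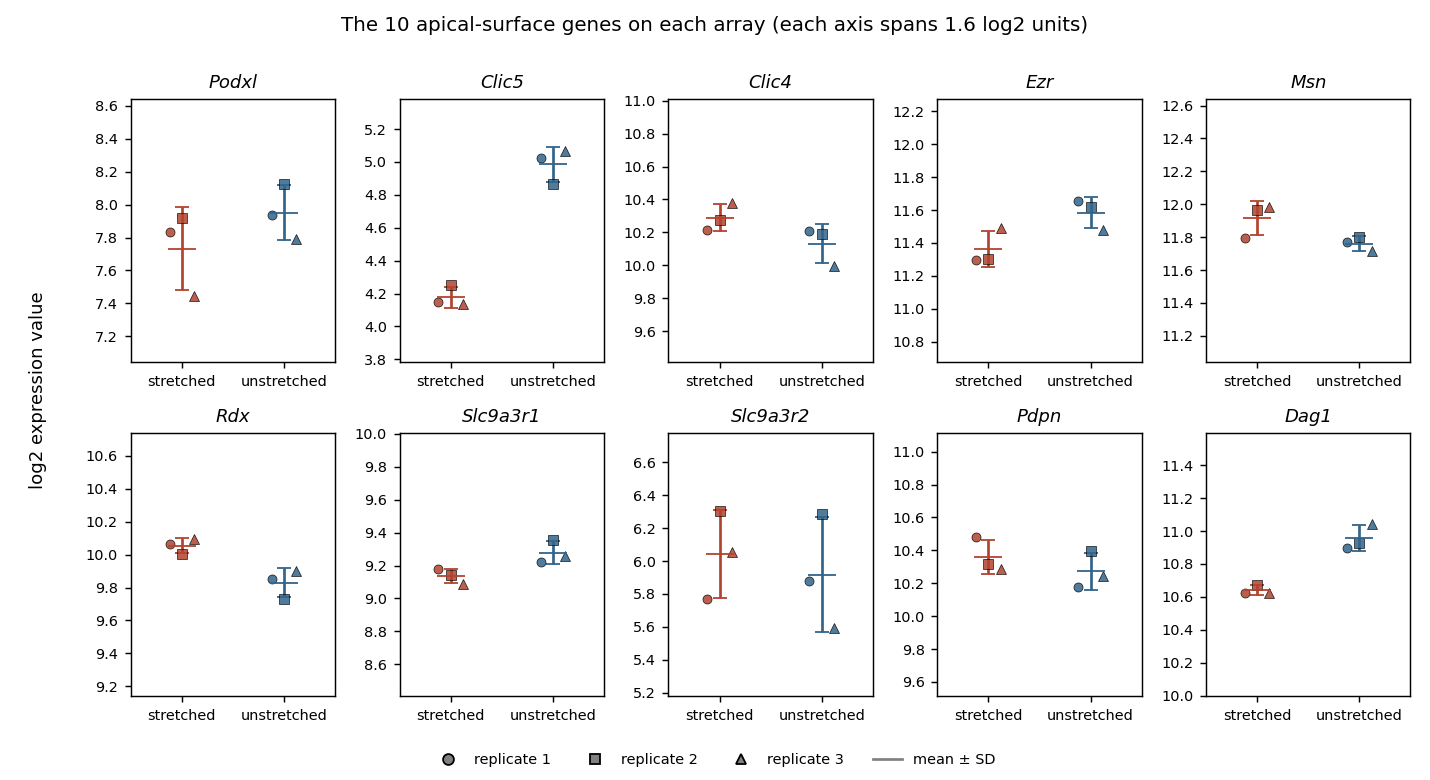
Log2 expression values (vertical axes, each spanning 1.6 log2 units) of the 10 genes on the 3 stretched arrays (red, left) and the 3 unstretched arrays (blue, right), with the mean and SD of each group (n = 3). Clic5 and Dag1 are lower on every stretched array than on any unstretched array, while Podxl, Slc9a3r2 and Pdpn overlap.

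Podxl itself did not pass. Podxl had log2 values of 7.83, 7.92 and 7.44 on stretched arrays and 7.94, 8.12 and 7.79 on unstretched arrays. The stretched values spread more widely than the distance between the group means, with stretched replicate 3 the lowest, and the groups overlapped. The means were 7.73 ± 0.25 and 7.95 ± 0.17 (SD, n = 3 each), giving a log2 change of -0.22 (SE 0.13) with a 95% interval of -0.51 to 0.07 and a limma adjusted p of 0.322. Leaving out an array moved the change between -0.31 and -0.075, the smallest without stretched replicate 3, and averaging both probe sets gave -0.057. A second, dimmer Podxl probe set had a mean of 5.16 ± 0.26 in stretched and 5.05 ± 0.18 in unstretched cells (SD, n = 3 each), with a log2 change of 0.11 (limma adjusted p = 0.690 over all probe sets), so the probe sets of Podxl differed in sign and neither passed. Podxl2 (endoglycan) and Cd34, its relatives in the same sialomucin family, lay far below the median gene, at 4.03 ± 0.08 and 3.49 ± 0.04 in stretched cells and at 4.18 ± 0.09 and 3.42 ± 0.14 in unstretched cells (SD, n = 3 each), and neither passed (limma adjusted p = 0.310 and 0.676).

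Clic5, the CLIC protein best known in podocytes and in hair cell stereocilia, showed the largest change of the 10 genes. Clic5 had log2 values of 4.15, 4.25 and 4.13 on stretched arrays, against 5.02, 4.87 and 5.07 on unstretched arrays. Every stretched value lay below every unstretched value, with a gap wider than the range of either group. The means were 4.18 ± 0.06 and 4.99 ± 0.11 (SD, n = 3 each), a log2 change of -0.81 (SE 0.09, 95% interval -1.005 to -0.61, limma adjusted p = 0.000263). The stretched level is like that of the endothelial markers above, so it may lie at background, and no fold is given. Averaging all probe sets gave a smaller change, -0.46 (adjusted p = 0.00227). All 4 probe sets of Clic5 were lower on every stretched array than on any unstretched array, and 3 of the 4 passed over all probe sets. The next brightest had a log2 change of -0.40 (adjusted p = 0.0296), another had -0.47 (adjusted p = 0.00490), and the dimmest had -0.15 (adjusted p = 0.306). All 4 lay below the median gene, and the dimmest had 3.65 ± 0.05 in stretched and 3.80 ± 0.06 in unstretched cells (SD, n = 3 each).

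Clic4, the close relative of Clic5 found in many cell types, had log2 values of 10.21, 10.27 and 10.38 on stretched arrays and 10.21, 10.19 and 9.99 on unstretched arrays. The lowest stretched value lay just above the highest unstretched value, so the groups came close without overlapping. Clic4 changed by 0.16 on the log2 scale (SE 0.09), with a 95% interval of -0.05 to 0.36, and did not pass (limma adjusted p = 0.309). The other 2 probe sets of Clic4 had changes of 0.19 and 0.17 and did not pass either. Without unstretched replicate 3 the change of Clic4 was 0.089, and with quantile normalization again 0.080. Clic1, the most widely expressed CLIC gene, had 11.91, 11.96 and 11.97 on stretched and 11.63 on each of the 3 unstretched arrays. Clic1 rose by 0.32 on the log2 scale (SE 0.08, limma adjusted p = 0.0212), and this call ended without any 1 of 4 arrays (adjusted p up to 0.0738), after a further quantile normalization (0.0868) or cyclic loess (0.0559). The per-array difference Clic5 minus Clic4 was lower by 0.97 in stretched cells, with all 3 stretched arrays (-6.07, -6.02 and -6.24) below all 3 unstretched arrays (-5.19, -5.32 and -4.93). Its two-sided exact permutation p was 0.1, the smallest that 3 against 3 arrays allow, and 0.267 adjusted over the 8 pairs compared.

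The promoters of the genes that fell, Clic5 and Dag1, and of Clic4, for comparison with its relative, are shown as RefSeq's sequence of mouse build GRCm38.p6, from 250 bases before to 50 after an annotated start, 5′ to 3′ on the gene's strand. Capitals mark GC boxes (GGGCGG) and CCAAT boxes (CCAAT), searched on both strands.
Clic5 (chr17:44188322-44188621, + strand): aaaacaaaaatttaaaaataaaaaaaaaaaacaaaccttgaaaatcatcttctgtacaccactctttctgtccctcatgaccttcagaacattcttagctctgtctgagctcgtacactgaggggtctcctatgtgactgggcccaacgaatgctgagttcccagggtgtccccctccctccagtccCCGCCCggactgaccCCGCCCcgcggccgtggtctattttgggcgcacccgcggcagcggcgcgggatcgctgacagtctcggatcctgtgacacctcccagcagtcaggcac
Clic4 (chr4:135272711-135273010, - strand): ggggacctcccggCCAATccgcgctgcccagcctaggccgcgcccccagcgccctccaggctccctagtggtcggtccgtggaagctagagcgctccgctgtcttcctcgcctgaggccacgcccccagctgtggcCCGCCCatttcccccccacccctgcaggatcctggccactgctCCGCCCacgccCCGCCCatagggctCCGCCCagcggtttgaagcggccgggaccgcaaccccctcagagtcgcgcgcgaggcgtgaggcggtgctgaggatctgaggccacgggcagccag
Dag1 (chr9:108263909-108264208, - strand): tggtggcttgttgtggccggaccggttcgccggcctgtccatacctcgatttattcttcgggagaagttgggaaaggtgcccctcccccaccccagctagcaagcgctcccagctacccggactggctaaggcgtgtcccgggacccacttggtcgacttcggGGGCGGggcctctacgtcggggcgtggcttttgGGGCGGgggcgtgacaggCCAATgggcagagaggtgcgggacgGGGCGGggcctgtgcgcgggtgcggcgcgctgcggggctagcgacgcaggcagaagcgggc
Clic5's window holds 16 CpG dinucleotides at 54.3% G+C, Clic4's 28 at 73.3% and Dag1's 30 at 69.7%, beside medians of 7 and 52.7% over 32851 promoter windows. Clic5 has 2 GC boxes and no CCAAT box here, Clic4 has 4 and 1, and the printed window of Dag1 has 3 and 1. The other Dag1 window, not printed, has 4 GC boxes and 2 CCAAT boxes, and 47 CpG dinucleotides at 75.3% G+C. GC boxes occur in 35.7% and CCAAT boxes in 37.4% of all windows. The table held 12 windows of 9 of the 10 genes, 2 of them overlapping windows of Dag1. A TEAD motif (GGAATG, both strands), a CArG box (the SRF motif) and a TATA box (TATAAA, both strands) were found in 0 of these 12, and in 14.7%, 1.63% and 13.6% of all windows. The AP-1 motif (TGANTCA, both strands) was found in 2 of the 12, 1 each of Ezr and Slc9a3r2, and in 7.81% of all windows. In the windows printed, no marked motif overlaps another. A match or its absence describes the letters of these windows only.

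The actin linkers did not pass the test, and the signs of their changes differed. Ezrin, the linker found in complex with podocalyxin in podocytes, had log2 values of 11.29, 11.31 and 11.49 on stretched arrays and 11.66, 11.62 and 11.48 on unstretched arrays. The groups overlapped only because stretched replicate 3 and unstretched replicate 3 nearly coincided. The log2 change of Ezr was -0.22 (SE 0.09, 95% interval -0.43 to -0.02, limma adjusted p = 0.147), and its other probe set had -0.09 (adjusted p = 0.596 over all probe sets). Ezr passed with quantile normalization again (log2 change -0.31, adjusted p = 0.0498) and with a trended, robust prior (adjusted p = 0.0342).

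Radixin had log2 values of 10.07, 10.00 and 10.09 on stretched arrays and 9.85, 9.73 and 9.90 on unstretched arrays, so that all stretched values were the higher ones. Rdx changed by 0.23 on the log2 scale (SE 0.09, 95% interval 0.04 to 0.41) and did not pass (limma adjusted p = 0.108). The other 2 probe sets of Rdx, both dimmer, had larger positive changes, 0.47 (SE 0.13, adjusted p = 0.0374 over all probe sets) and 0.41 (SE 0.13, adjusted p = 0.0683). In all 3 Rdx probe sets every stretched array lay above every unstretched array. With all 3 averaged, Rdx had a log2 change of 0.37 and passed (adjusted p = 0.0204), as it did with the trended prior (0.0426).

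Moesin, the linker that predominates in endothelial and blood cells, had 11.80, 11.97 and 11.98 on stretched arrays and 11.77, 11.80 and 11.71 on unstretched arrays. Stretched replicate 1 fell just below unstretched replicate 2, so the groups overlapped. The log2 change of Msn was 0.15 (SE 0.09, 95% interval -0.04 to 0.35, limma adjusted p = 0.285). It shrank to 0.04 with quantile normalization again, and its other probe set had 0.29 (adjusted p = 0.170 over all probe sets).

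Differences between the linkers within arrays did not pass either. The difference Ezr minus Rdx was 1.31 ± 0.08 in stretched and 1.76 ± 0.16 in unstretched cells, a change of -0.45, and Ezr minus Msn was -0.55 ± 0.09 and -0.18 ± 0.06, a change of -0.38 (SD, n = 3 each). In both, the groups did not overlap, and the exact permutation p was 0.1, the smallest this design allows (0.267 adjusted over the 8 pairs). Msn minus Rdx changed by -0.07 with overlapping groups (exact p = 0.5). Of the other pairs, Podxl minus Ezr changed by 0.00, Pdpn minus Podxl by 0.31 and Dag1 minus Podxl by -0.10, all with overlapping groups (exact permutation p = 1, 0.2 and 0.5). These differences have no meaning as levels, since probe sets differ in brightness, and only their change between groups can be read.

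**Figure D2:**
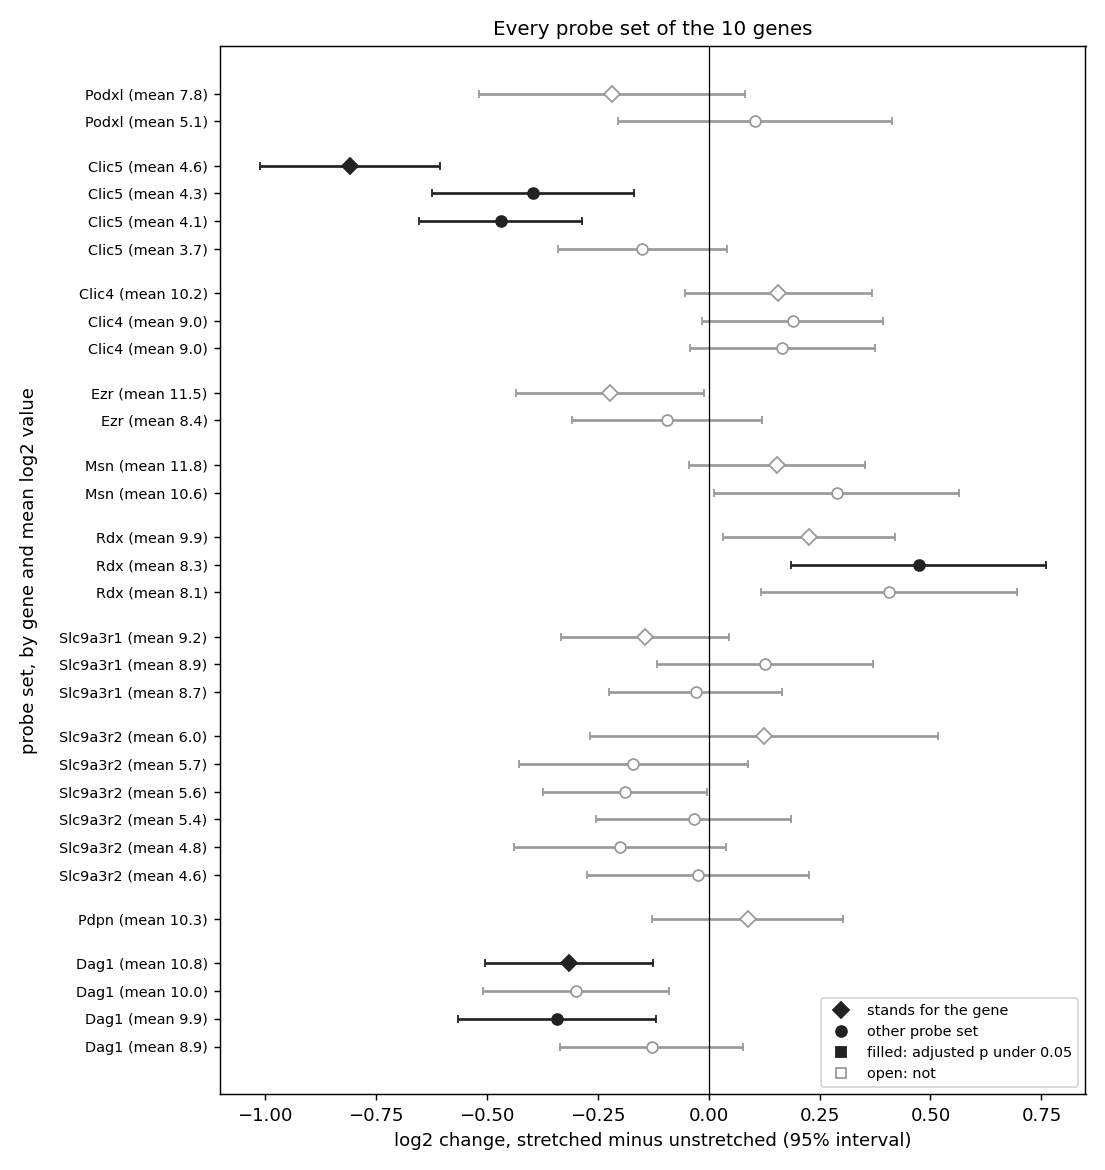
Log2 change, stretched minus unstretched, with its 95% interval (horizontal axis) for each of the 30 probe sets (vertical axis, with the mean log2 value over all 6 arrays), fitted among all probe sets. Diamonds stand for the gene and filled symbols have an adjusted p under 0.05: 3 of Clic5, 2 of Dag1 and 1 of Rdx.

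The scaffolds that tie podocalyxin to ezrin did not pass. Slc9a3r1 had log2 values of 9.18, 9.14 and 9.09 on stretched arrays and 9.22, 9.36 and 9.26 on unstretched arrays. All stretched values were the lower ones, but by a small margin, with a log2 change of -0.14 (SE 0.08, 95% interval -0.33 to 0.04, limma adjusted p = 0.298). Its other 2 probe sets had changes of 0.13 and -0.03, with overlapping groups, and averaging all 3 gave -0.015. Slc9a3r2, the scaffold found with podocalyxin in rat podocytes, had 5.77, 6.30 and 6.05 on stretched arrays and 5.88, 6.28 and 5.59 on unstretched arrays. The stretched values lay wholly within the unstretched range except for the highest, which barely exceeded it (log2 change 0.13, SE 0.17, 95% interval -0.26 to 0.51, limma adjusted p = 0.701). The other 5 probe sets of Slc9a3r2 had changes of -0.20 to -0.02, so its direction was not settled, and none of the 6 passed. Slc9a3r1 minus Slc9a3r2 changed by -0.27 with overlapping groups (exact permutation p = 0.4), and by 0.07 with all probe sets of each averaged.

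Podoplanin, read by 1 probe set, had log2 values of 10.48, 10.31 and 10.28 on stretched arrays and 10.18, 10.39 and 10.24 on unstretched arrays. The groups interleaved. The log2 change of Pdpn was 0.09 (SE 0.09, 95% interval -0.12 to 0.296, limma adjusted p = 0.605), an interval that allows a fold of 0.920 to 1.23. It was 0.003 with quantile normalization again and 0.028 to 0.149 with an array left out. Of 8 genes for its binding partners and regulators, 2 rose, 1 fell and 5 did not pass, or 37.5% called, beside 14.7% of all genes. Cd9, a tetraspanin that binds podoplanin in human cells and the gene named in the series title, had 10.70 ± 0.09 in stretched and 10.00 ± 0.18 in unstretched cells (SD, n = 3 each; log2 change 0.70, SE 0.10, limma adjusted p = 0.00154). The hyaluronan receptor gene Cd44, whose product binds both podoplanin and the actin linkers, had 9.46, 9.36 and 9.25 on stretched against 8.82, 8.94 and 8.86 on unstretched arrays (log2 change 0.48, SE 0.09, limma adjusted p = 0.00472), and its other 3 probe sets had changes of -0.19 to 0.64. Lgals8, a galectin that binds the sugars of podoplanin, had 8.30, 8.35 and 8.18 on stretched against 8.93, 8.95 and 8.93 on unstretched arrays (log2 change -0.65, SE 0.08, limma adjusted p = 0.000572). Its second probe set had a change of -0.55.

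Dag1 fell. Dystroglycan is made as 1 precursor that is cleaved into an outer part, which binds matrix, and a membrane-spanning part. Dag1 had log2 values of 10.62, 10.67 and 10.63 on stretched arrays and 10.90, 10.93 and 11.04 on unstretched arrays. The stretched arrays lay close together and all below the unstretched arrays. The means were 10.64 ± 0.03 and 10.96 ± 0.08 (SD, n = 3 each), a log2 change of -0.31 (SE 0.08, 95% interval -0.50 to -0.13, limma adjusted p = 0.0276), or 1.24-fold lower. Its other 3 probe sets had changes of -0.34 (adjusted p = 0.0499 over all probe sets), -0.30 (0.0657) and -0.13 (0.427). Leaving out an array lost the call in 5 of 6 cases: stretched replicate 1 (adjusted p = 0.0971), 2 (0.0668) or 3 (0.0858), and unstretched replicate 2 (0.0550) or 3 (0.0697), at changes of -0.33 to -0.27.

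Around Dag1, 2 of 30 genes of its complex and of its sugar-adding enzymes rose, 2 fell and 26 did not pass, with a median log2 change of -0.05. The share called was 13.3%, beside 14.7% of all genes. Sarcospan (Sspn), a membrane protein of the complex, had 9.71, 9.81 and 9.80 on stretched and 10.18, 10.14 and 10.12 on unstretched arrays (log2 change -0.38, SE 0.08, limma adjusted p = 0.0106), and its other probe set had 0.16. Dystrophin (Dmd) fell by 0.44 on the log2 scale at a low level, 4.02 ± 0.11 in stretched and 4.46 ± 0.16 in unstretched cells (SD, n = 3 each; limma adjusted p = 0.0163). Utrophin (Utrn), the dystrophin relative of most epithelia, had 10.26 ± 0.05 in stretched and 10.35 ± 0.08 in unstretched cells (SD, n = 3 each) and did not pass (log2 change -0.10, 95% interval -0.28 to 0.09). The dystrobrevins, cytoplasmic adaptors of the complex, rose: Dtna by 0.35 (SE 0.09) and Dtnb by 0.57 (SE 0.14) on the log2 scale (limma adjusted p = 0.0256 and 0.0217). The calls of Dmd and Dtnb each ended without any 1 of 3 arrays (adjusted p up to 0.0694 and 0.0889), that of Dtna without any 1 of 4 (up to 0.113), after a further quantile normalization (0.0760) or cyclic loess (0.0522), and that of Sspn without stretched replicate 1 (0.0543). Averaging all probe sets ended the calls of Sspn (0.599) and Dmd (0.0518), and the probe set of Dtnb without a suffix did not pass (0.221).

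Podocalyxin's charge comes in part from sialic acid. The list of genes for sialic acid or mucin-type O-glycans, not all of them particular to O-glycans, held the largest change of any related list. This list had 28 measured genes, with 4 that rose, 6 that fell and 18 that did not pass, with a median log2 change near 0. That is 35.7% called, beside 14.7% of all genes, in a list chosen with earlier results known. St3gal6, named in addition to the rule after its values were seen, did not pass (log2 change -0.20, limma adjusted p = 0.186). It was read by 5 probe sets. Those not standing for the gene had changes of -1.28 to -0.01, and 2 of them passed as lower over all probe sets. St3gal4, a sialyltransferase that caps galactose, had log2 values of 6.24, 6.23 and 6.001 on stretched arrays and 7.35, 7.12 and 7.49 on unstretched arrays. The groups lay far apart, with a 2.24-fold lower level in stretched cells, read by 1 probe set. On the log2 scale this is a change of -1.16 (SE 0.11) with a 95% interval from -1.41 to -0.91 (limma adjusted p = 0.000124). St6galnac2, which adds sialic acid to O-linked N-acetylgalactosamine, had 7.13, 7.20 and 7.42 on stretched and 7.70, 7.70 and 7.79 on unstretched arrays (log2 change -0.48, SE 0.10, limma adjusted p = 0.00742). The lysosomal sialidase gene Neu1, whose product removes sialic acid, had 8.98, 8.92 and 8.88 on stretched and 9.51, 9.45 and 9.50 on unstretched arrays (log2 change -0.55, SE 0.08, limma adjusted p = 0.00130).

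The genes that rose in this list included the core 1 O-glycan enzyme and its chaperone. C1galt1, which adds the first galactose of mucin-type O-glycans, had 8.45, 8.39 and 8.61 on stretched and 7.93, 7.92 and 8.02 on unstretched arrays (log2 change 0.53, SE 0.09, limma adjusted p = 0.00306). C1galt1c1 (Cosmc), the chaperone that this enzyme needs to fold, had 9.36, 9.14 and 9.40 on stretched and 8.84, 8.79 and 8.99 on unstretched arrays (log2 change 0.43, SE 0.10, limma adjusted p = 0.0154). St6galnac6, a sialyltransferase known mainly for gangliosides, rose by 0.53 (SE 0.09, limma adjusted p = 0.00345). The other 4 called genes, named in addition to the rule after their values were seen, were Galnt2, which starts O-glycans and rose by 0.34, and Galnt1, St6gal1 and St3gal5, with log2 changes of -0.31, -0.29 and -0.27. These 4 were not put through the alternatives. Averaging all probe sets ended the calls of C1galt1 (adjusted p = 0.236), C1galt1c1 (0.257) and St6galnac2 (0.0593), and that of C1galt1c1 also ended without any 1 of 3 arrays (up to 0.0677).

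**Figure D3:**
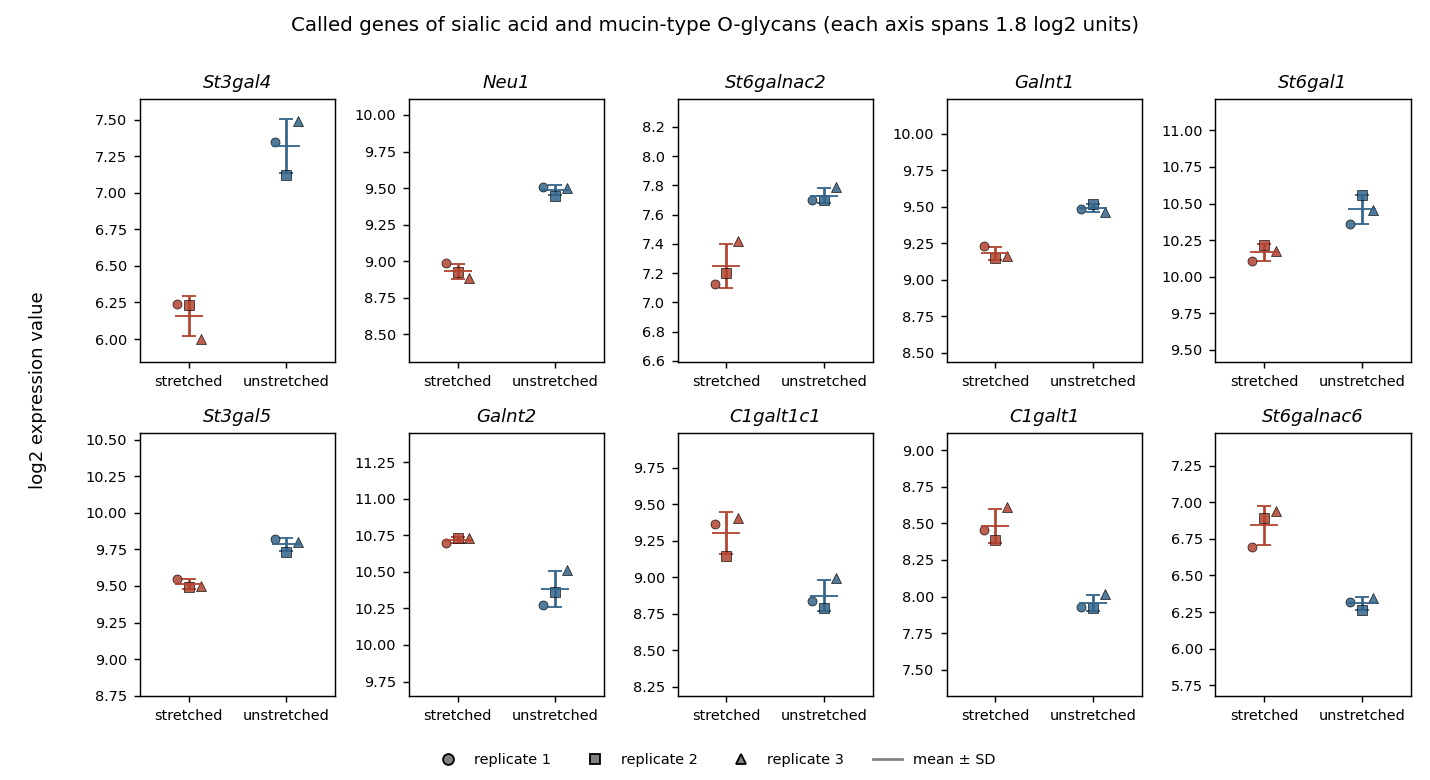
Log2 expression values (vertical axes, each spanning 1.8 log2 units) of the 10 called genes of sialic acid and mucin-type O-glycans on the 3 stretched arrays (red, left) and the 3 unstretched arrays (blue, right), with the mean and SD (n = 3). St3gal4 at the upper left has the widest gap, 1.16 log2 units, and 6 of the 10 genes are lower in stretched cells.

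In a list drawn up for partners and regulators of the ezrin family, 5 of 38 genes rose, 1 fell and 32 did not pass. The median log2 change was 0.11, and 15.8% were called, beside 14.7% of all genes. The list also holds other FERM-domain genes, among them Frmd4a, and being listed does not mean that a gene acts on the linkers. Frmd4a, a FERM-domain scaffold of polarity proteins, had 9.23, 9.14 and 9.18 on stretched and 8.18, 8.46 and 7.92 on unstretched arrays (log2 change 0.99, SE 0.12, limma adjusted p = 0.000499). The myosin phosphatase subunits Ppp1cb and Ppp1r12a, which can also remove the activating phosphate of the linkers, rose by 0.45 (SE 0.10) and 0.34 (SE 0.08) on the log2 scale (limma adjusted p = 0.00968 and 0.0193). The GTPase gene Rac1 rose by 0.35 (SE 0.08, limma adjusted p = 0.0137), but its other 2 probe sets had changes of -0.20 and -0.03. Merlin (Nf2), a relative of the linkers known as a tumour suppressor, had 8.92, 8.93 and 8.79 on stretched and 9.34, 9.14 and 9.15 on unstretched arrays (log2 change -0.33, SE 0.09, limma adjusted p = 0.0321). Rhoa, the GTPase upstream of linker activation, did not pass (log2 change 0.20, SE 0.09, limma adjusted p = 0.172), though its probe set without a suffix did (0.47, adjusted p = 0.0177). The call of Nf2 ended without any 1 of 4 arrays (adjusted p up to 0.119) and with averaged probe sets (0.126), that of Ppp1r12a without any 1 of 3 arrays (up to 0.0774), and that of Rac1 without stretched replicate 1 (0.0511) or 2 (0.0577). Ppp1r12a also lost its call with quantile normalization again (0.0679).

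Genes of podocalyxin's relatives, of CLIC relatives and of vesicle traffic to the apical membrane moved both ways, 4 of 31 higher, 3 lower and 24 not passing. Their median log2 change was -0.05, and their called share was 22.6%, beside 14.7% of all genes. The 4 that rose include Clic1, described above. Rab11fip5, an effector of the recycling GTPase Rab11, had 10.21, 10.24 and 10.04 on stretched and 9.47, 9.65 and 9.37 on unstretched arrays (log2 change 0.67, SE 0.10, limma adjusted p = 0.00160), and its second probe set had a change of 0.85. Rab11b itself rose by 0.37 (SE 0.08, limma adjusted p = 0.0112) and the membrane-binding annexin Anxa2 by 0.45 (SE 0.08, limma adjusted p = 0.00479), both on the log2 scale. The apical fusion protein gene Stx3 fell by 0.35 (SE 0.09, limma adjusted p = 0.0236) and the junction protein gene Cgn fell by 0.43 (SE 0.11, limma adjusted p = 0.0238). The third gene that fell was the motor Myo6, named in addition to the rule after its value was seen and not put through the alternatives, with a log2 change of -0.31. The calls of Stx3 and Cgn ended without any 1 of 3 arrays (adjusted p up to 0.0956 and 0.0921) and with averaged probe sets (0.276 and 0.199), that of Rab11b ended without stretched replicate 2 (0.0525), and the probe set of Anxa2 without a suffix had -0.05.

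Of 20 genes of the apical polarity complexes, 2 rose, 2 fell and 16 did not pass, with a median log2 change of 0.04. The share called was 20%, beside 14.7% of all genes. Patj, a scaffold of the Crumbs complex, had 6.17, 6.08 and 6.19 on stretched and 6.82, 7.06 and 6.85 on unstretched arrays (log2 change -0.76, SE 0.09, limma adjusted p = 0.000467). Its other 3 probe sets had changes of -0.35 to -0.05, and averaging all 4 gave -0.35 (adjusted p = 0.0295). Pard3b, a relative of the polarity scaffold Par3, had 6.76, 6.68 and 6.51 on stretched and 7.66, 7.36 and 7.17 on unstretched arrays (log2 change -0.75, SE 0.12, limma adjusted p = 0.00277). Mpp5, which joins Patj to Crumbs, rose by 0.42 (SE 0.12, limma adjusted p = 0.0366), and the kinase gene Stk11 rose by 0.40 (SE 0.11, limma adjusted p = 0.0401). The calls of Mpp5 and Stk11 ended without any 1 of 4 and of 5 arrays (adjusted p up to 0.119 and 0.134) and with quantile normalization again (0.0804 and 0.0884). Stk11 also depended on the probe set, with 0.24 for averaged probe sets (adjusted p = 0.147) and 0.084 for the set without a suffix (0.678), and it did not pass among all probe sets (0.0502).

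**Figure D4:**
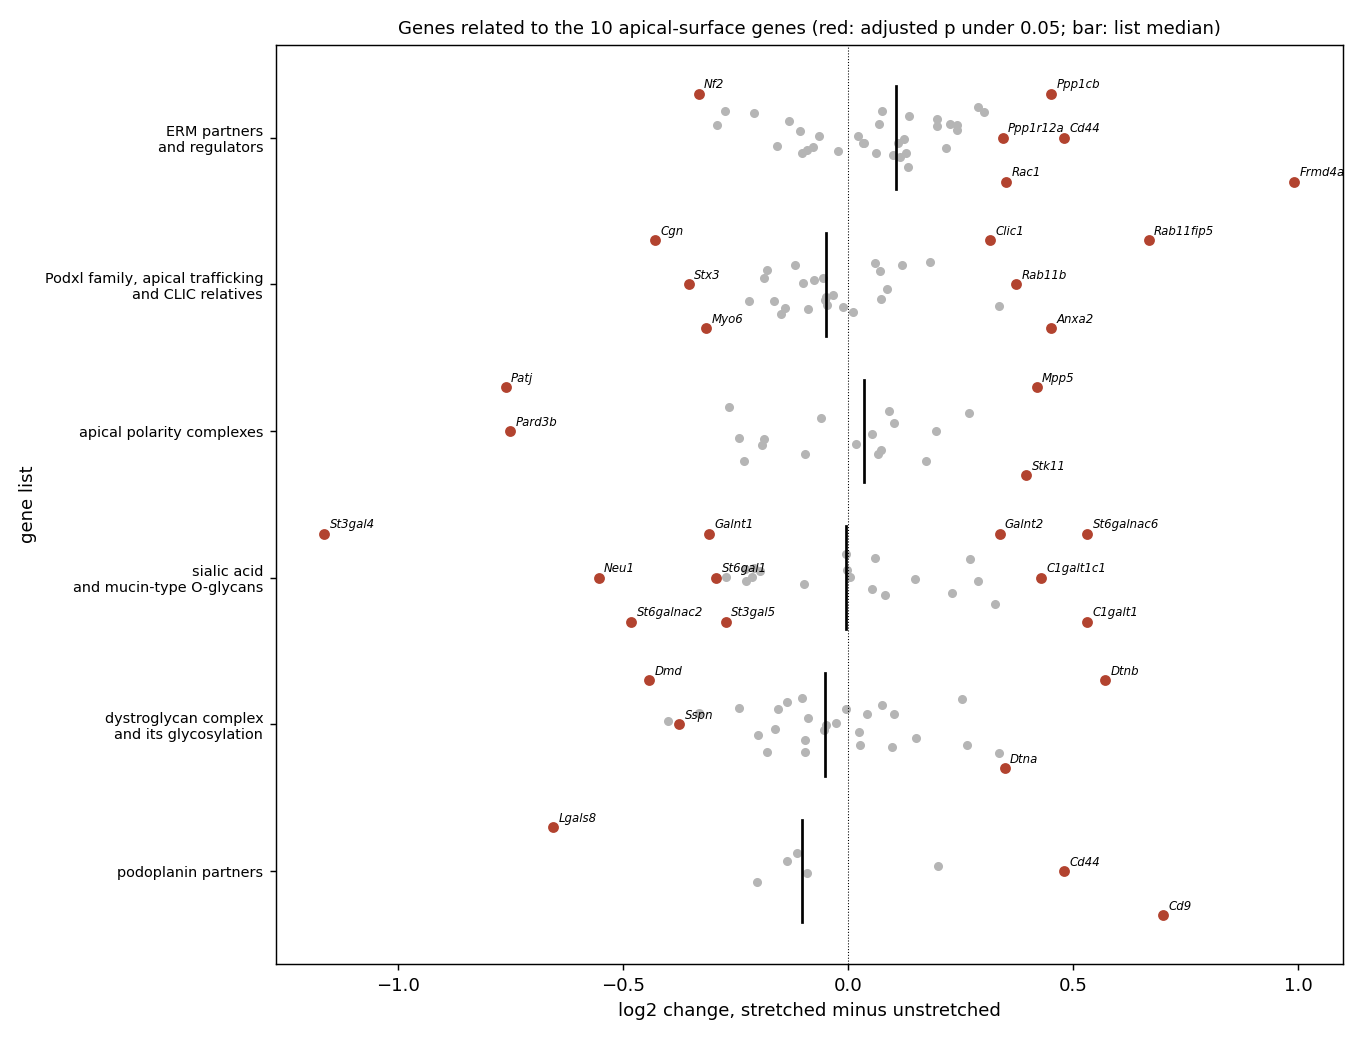
Log2 change, stretched minus unstretched (horizontal axis), of each gene in 6 lists of related genes (vertical axis, jittered within a list). Red points passed at an adjusted p under 0.05, grey points did not, and the bar is the list's median. St3gal4 (-1.16) and Frmd4a (0.99) are the outermost points.

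Over the 6 lists, 154 genes were measured, of which 18 rose and 15 fell, or 21.4%, beside 14.7% of all genes. The lists share samples and were not chosen blind, so nothing particular to them is read from this. The genes most like a member were sought as those with the smallest root mean square difference between profiles over the 6 arrays, each centred on its own mean. For Clic5 these were Dtx4 (0.036 log2 units), Aldh5a1 (0.059), Fbxw4 (0.067) and Etfbkmt (0.071), with log2 changes of -0.80, -0.91, -0.77 and -0.89. For Podxl they were Nufip1 (0.025), Snhg12 (0.037), Nek6 and Tbc1d22a (0.049 each), with log2 changes of -0.25 to -0.20, none of which passed. With 6 points and 18193 genes such closeness is a description only.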

How the data were processed

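Expression was measured on 6 Affymetrix mouse arrays, and the authors deposited log2 values made with RMA, per the submitters' processing notes. RMA adjusts background, makes the probe values of arrays share 1 distribution and combines the probes of a set. Its version, and any genome build, is not given in the sources used here. The deposited probe set values did not share 1 distribution. Their medians were 4.92 to 4.96 on stretched and 4.96 to 4.98 on unstretched arrays, and their SDs differed too, as given above. No detection calls were used, so how far a low value stands above background is unknown, and a change in total RNA cannot be seen.

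Of 45101 probe sets, 64 controls were left out, 34945 had 1 gene symbol, 932 had several and 9160 were not listed. Of those with 1 symbol, 34741 matched a gene ID in RefSeq's GRCm38.p6 table, and 0 symbols changed. The contrast of stretched against unstretched arrays was estimated in limma 3.58.1 (lmFit, eBayes; R 4.3.3), without covariates or a filter, on 18193 genes and again on all probe sets, with Benjamini-Hochberg adjustment at 0.05. Each SE comes from that fit. Pairs of genes were compared by two-sided exact permutation over 20 splits, in Python 3.11.15. The steps were tested on simulated data.

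The members and the 6 lists were chosen with earlier results of these data known. The naming rule took the 10 genes, 9 partners (of which Arhgdia is not analysed here), up to 6 called genes per list by moderated statistic, and the 4 nearest profiles to Clic5 and to Podxl. Alternatives were the replicate number as a block, leaving out each array, other scalings, dropping dim genes, averaging or otherwise picking probe sets, a trended robust prior and a minimum change of 0.3.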

Additional observations from a re-analysis of the deposited data

How the results depend on the processing

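Clic5 kept its direction and its call under each alternative run in which it was tested, with a log2 change of -0.87 to -0.77 when any array was left out (adjusted p up to 0.00236) and -0.46 with averaged probe sets. It is too dim for the test without dim genes, which left 1 member called. Dag1 ranged from -0.34 to -0.27 with an array left out (adjusted p 0.0402 to 0.0971), and against a minimum change of 0.3 log2 units its change of -0.31 did not pass. Ezr passed with quantile normalization again (-0.31) and with a trended, robust prior (-0.22), and Rdx passed with averaged probe sets (0.37) and with that prior (0.23). Slc9a3r2 turned to -0.082 with averaged probe sets and -0.17 with probe sets without a suffix, and ranged from -0.037 to 0.308 with an array left out. With those probe sets Rac1 (-0.029) and Anxa2 (-0.051) turned too. The cause was not tested.

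Members called numbered 1 to 2 with an array left out, 4 with the trended prior and 1 with a minimum change of 0.3. All genes called numbered 1661 to 2639 with an array left out and 437 with that minimum, and genes of the 6 lists numbered 18 to 34 and 4, against 2681 and 33. With quantile normalization again 1149 genes were higher and 1544 lower, and centred on array medians 1666 and 1028, against 1452 and 1229. No member changed sign under these scalings or cyclic loess. Of the 28 genes outside the members that passed and that the naming rule took, 14 lost the call without at least 1 array. Galnt1, Galnt2, St6gal1, St3gal5, St3gal6 and Myo6 were not put through the alternatives.

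Of the differences between members, Slc9a3r1 minus Slc9a3r2 turned to 0.07 with averaged probe sets. With an array left out, Podxl minus Ezr ranged from -0.12 to 0.21 and Dag1 minus Podxl from -0.23 to 0.03.

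Whether the replicate numbers pair the arrays was not settled. Deviations from the group means of same-numbered arrays correlated at 0.02, 0.15 and 0.29. Stretched replicates 2 and 3 correlated best with their own number, and stretched replicate 1 with another number (0.06). With the number as a replicate block, 2 members (Clic5 -0.81, Dag1 -0.31) and 3102 genes were called. A random block, with a correlation of 0.15 within a number, gave 3283 genes, against 2681 without a block. The number of arrays limits the precision of each value.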
